A study of Rattus norvegicus with 24 samples.

Results

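The genes described here are the receptors through which acetylcholine acts on neurons and the enzyme that ends its action, measured in the CA1 field of the rat hippocampus. They are 4 muscarinic receptor genes (Chrm1, Chrm2, Chrm3 and Chrm4), 3 nicotinic receptor subunit genes (Chrna4, Chrna7 and Chrnb2) and Ache, which encodes acetylcholinesterase, 8 genes in all. Members were taken by name, and every probe set annotated to exactly 1 of these symbols was used. Of the 8 genes, 7 had such a probe set, with 8 probe sets among the 31099 of the array, and Ache was not analysed here. The transcripts of 3 of the 7 genes, Chrm1, Chrm3 and Chrm4, passed the filter on low signal, as did 9076 of the 14218 genes with a probe set of their own. None of the 3 passed the test in any of the 4 comparisons between groups.

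RNA was extracted from microdissected CA1 of male Long-Evans rats, which received no treatment, and hybridised to Affymetrix Rat Genome 230 2.0 arrays, 1 for each biological replicate that the labels name. The aged impaired group (8 arrays) held rats of 24 to 26 months whose place learning in the Morris water maze was worse than that of young rats. The aged unimpaired group (6 arrays) held rats of the same ages that learned within the range of the young, and the young group (9 arrays) held rats of 6 months. The aged rats had been bought at 8 to 9 months and kept until testing, and all brains were taken 2 weeks after the maze. CA1 tissue holds pyramidal cells, interneurons, glia and vessels together, so fewer cells of a type and less RNA per cell cannot be told apart.

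Acetylcholine reaches CA1 mainly through axons of neurons in the medial septum and diagonal band, whose cell bodies, and so most of the transcripts for making the transmitter, lie outside the dissected tissue. Muscarinic receptors are G protein-coupled: M1 and M3 act through Gq and phospholipase C, and M2 and M4 act through Gi and lower cyclic AMP. Nicotinic receptors are ion channels of several subunits, with alpha7 subunits forming one main brain type and alpha4 with beta2 subunits another. The system is known for its part in attention and memory and for its loss in Alzheimer's disease.

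The sequence just before the start of a gene is where transcription is set up. It is printed for the 3 receptors whose transcripts passed the filter and for Chrna7, whose upstream window held the most CpG pairs among those that did not. All 7 genes with a probe set, and Ache, matched the RefSeq promoter table (build GRCr8). Each run gives the 250 bases upstream of the annotated start, 5′ to 3′ on the strand of the gene, with a GC box (GGGCGG) or a CCAAT box, on either strand, in capitals.
Chrm1, chr1:214996109-214996358, plus strand: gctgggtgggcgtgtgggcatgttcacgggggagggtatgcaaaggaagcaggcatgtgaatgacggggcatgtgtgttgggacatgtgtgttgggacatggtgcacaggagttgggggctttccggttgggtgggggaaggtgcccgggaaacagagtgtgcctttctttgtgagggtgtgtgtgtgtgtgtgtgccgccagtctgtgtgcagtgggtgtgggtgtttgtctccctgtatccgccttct
Chrm3, chr17:64696677-64696926, plus strand: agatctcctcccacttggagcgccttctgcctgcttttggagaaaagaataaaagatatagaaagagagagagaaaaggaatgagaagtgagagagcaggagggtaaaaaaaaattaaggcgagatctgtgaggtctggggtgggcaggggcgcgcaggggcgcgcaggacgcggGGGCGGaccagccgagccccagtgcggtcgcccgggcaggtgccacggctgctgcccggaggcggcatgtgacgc
Chrm4, chr3:98348830-98349079, plus strand: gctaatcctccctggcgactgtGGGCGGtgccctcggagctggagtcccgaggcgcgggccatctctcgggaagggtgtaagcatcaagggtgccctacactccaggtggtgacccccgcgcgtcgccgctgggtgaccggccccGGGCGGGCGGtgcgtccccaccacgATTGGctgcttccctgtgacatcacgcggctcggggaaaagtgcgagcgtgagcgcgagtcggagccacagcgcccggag
Chrna7, chr1:126249130-126249379, minus strand: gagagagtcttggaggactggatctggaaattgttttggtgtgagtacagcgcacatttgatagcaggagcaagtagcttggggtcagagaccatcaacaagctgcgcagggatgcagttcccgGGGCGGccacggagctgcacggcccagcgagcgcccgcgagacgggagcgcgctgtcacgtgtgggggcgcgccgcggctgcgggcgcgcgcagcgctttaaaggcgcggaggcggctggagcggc

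The 4 windows differed in base composition. The Chrm4 window had 28 CpG pairs, more than 93.21% of 33469 rat windows of the same length, and it held 3 matches to the GC box, of which a pair overlapped, and 1 to the CCAAT box. The Chrna7 window had 27 CpG pairs and 1 GC box, and the Chrm3 window 17 CpG pairs and 1 GC box. Chrm1 stood apart with 7 CpG pairs, close to the median of 5 over all windows, and with no match to either motif. A GC box was present in 30.47% of all windows and a CCAAT box in 34.02%. None of the 8 genes' windows matched the TATA box (TATAAA, 12.93% of windows), the cyclic AMP response element (TGACGTCA, 1.59%) or the core of the REST element (TTCAGCACC, 0.3%). Chrm4 was detected and Chrna7 was not, but Chrna7 was printed for its CpG content. The windows of the other receptors that did not pass the filter, Chrna4, Chrnb2 and Chrm2, had 26, 10 and 9 CpG pairs. So few windows cannot show whether CpG content goes with detection. These matches describe letters only, since no measurement here bears on the promoters.

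The arrays were alike, with a median log2 signal of 4.2 to 4.28 and a median correlation with the other arrays of 0.996 to 0.998 across probe sets. The CA1 pyramidal genes Wfs1, Pou3f1 and Mpped1, 3 of the 4 measured, were among the bright genes in each group. So was Pcp4 of the CA3 and CA2 list, at means of 10.31, 9.95 and 10.31 in impaired, unimpaired and young arrays. Between impaired and unimpaired rats no marker was called. Among hippocampal field markers, Wfs1 (-0.36) and Pou3f1 (-0.28), 2 of 4 measured in the CA1 list, were lower in impaired rats. Pcp4 (0.37), 1 of 6 in the CA3 and CA2 list, and Prox1 (0.67), 1 of 2 in the dentate list, were higher. Each had a limma unadjusted p under 0.05, as did 6.93% of all genes, and was named for it. In the same lists, Dcn of CA1 (0.29) and Bok of CA3 and CA2 (-0.06) went the other way. The choroid plexus gene Ttr reached 9.50 in impaired replicate 6 and young replicate 2. Against young rats, 2 of 5 measured microglial markers and 1 of 6 astrocyte markers rose in aged rats, where 3.09% of all genes rose. Of 9 interneuron markers 0 were called, where 3.71% of all genes were, so that count lies near the background. Of the 4 measured CA1 pyramidal markers, Dcn, which fibroblasts of the meninges also make, fell in aged rats by 0.71 on the log2 scale (limma, Benjamini-Hochberg adjusted p = 0.00857). Of 4 measured endothelial markers 1 was called, where 3.71% of all genes were: Slco1c1 fell by 0.41. The others, Cldn5 (-0.056), Pecam1 (-0.005) and Flt1 (0.004), were not called. Among markers of other tissue, the meningeal gene Igf2 fell by 0.84, and Ppp1r1b, the only striatal gene measured, rose by 0.25. The part of these marker differences in the receptor values was not tested. The summed linear signal of the 5 microglial markers was 3102.3 to 3932.9 in impaired, 2935.3 to 3726.1 in unimpaired and 2206.2 to 3062.9 in young arrays, and that of the 9 interneuron markers was 10213.8 to 12967.3, 11492.2 to 11893.3 and 11485.4 to 13149.5 in the same groups. No marker of cholinergic neurons could be measured: 4 of the 6 listed were at background and 2 had no probe set.

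Only some of the receptors gave a signal above background. Signals are log2 values made by GCRMA, which corrects for background and joins the probes of a probe set, and a gene was tested when its signal was over 4 in at least 6 arrays. Probe sets for bacterial genes, which no rat cell makes, gave a scale for the background: the 27 of them on the array had mean signals between 2.08 and 3.45, with single values up to 3.74. Chrm3 (1387462_at) had a mean signal of 7.02, Chrm1 (1387736_at) 6.16 and Chrm4 (1388191_at) 5.92, and each stood above every bacterial control in 23 of 23 arrays. The other 5 probe sets never reached 4. Chrna4 (1369252_a_at) had a mean of 2.74, Chrm2 (1369245_at) of 2.56, Chrna7 (1387419_at) of 2.26 and a second probe set of Chrm3 (1369112_at) of 2.90, and none exceeded all bacterial controls in any array. Chrnb2 (1369432_at), at 3.53, was above all the bacterial controls of its array in 22 of 23 arrays while remaining under the filter. Signals of different probe sets depend on their probes, so these values say which transcripts could be followed and not which receptor was more abundant. The paired Chrm3 probe sets gave unlike signals, and after removal of group means they correlated with r = 0.355 over 23 arrays (permutation p = 0.0971, Spearman rho 0.378, permutation p = 0.0773, r = 0.396 without the 2 arrays farthest from the median).

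**Figure D1:**
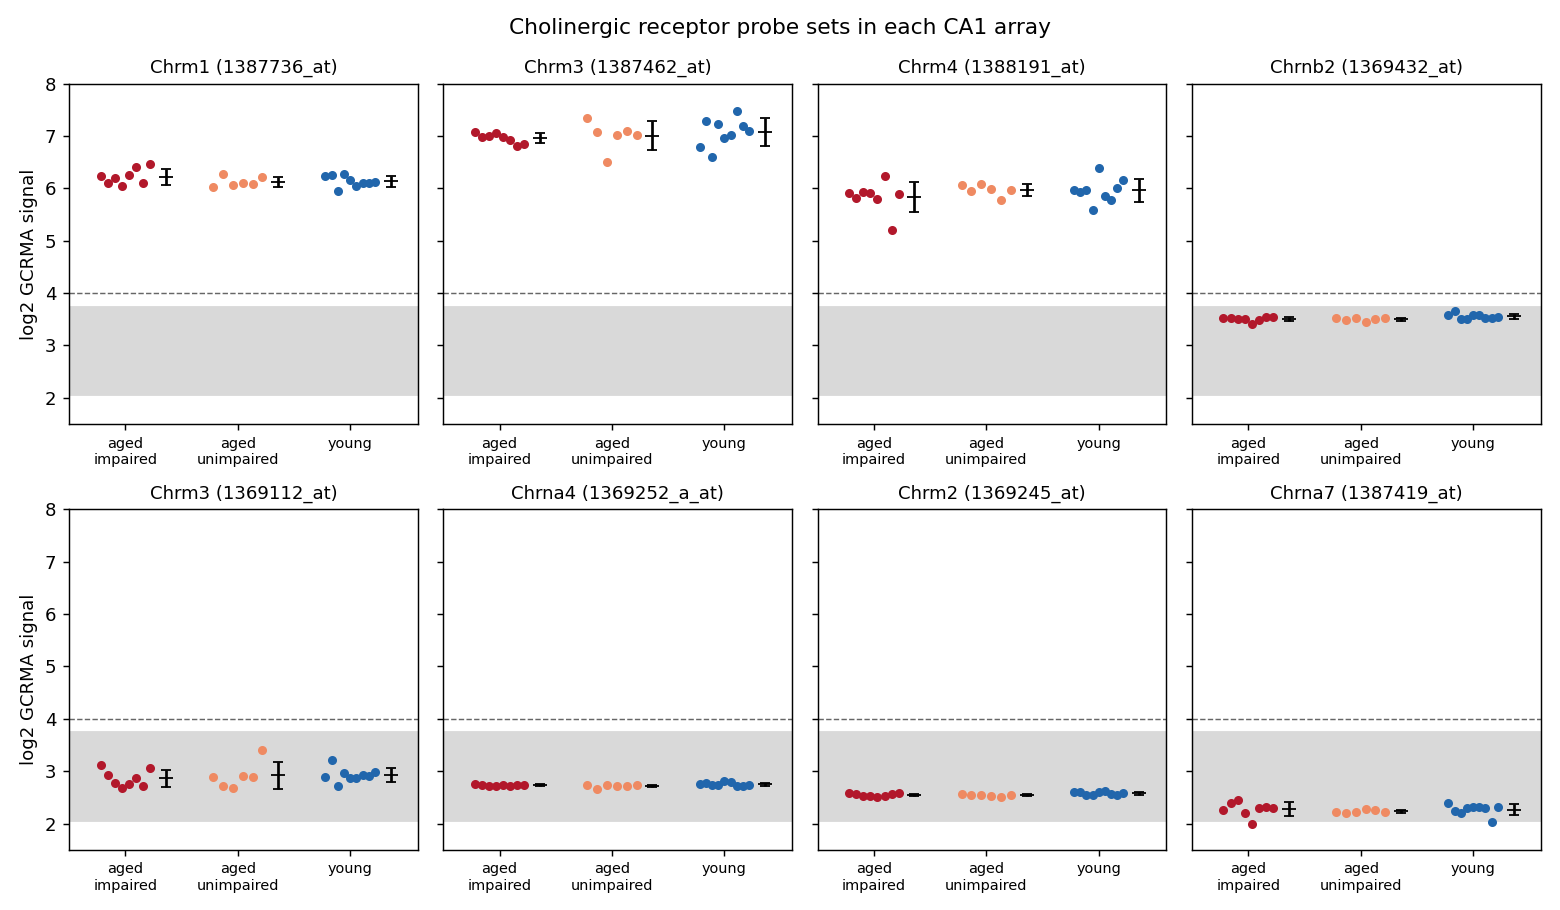
Log2 GCRMA signal of each receptor probe set (vertical axis) in every array of the aged impaired, aged unimpaired and young groups, with the group mean and SD as a black bar beside the points. The grey band spans all single values of the bacterial control probe sets, 2.04 to 3.74, and the dashed line is the filter at 4. Chrm1, one Chrm3 probe set and Chrm4 lie above the band in all arrays, and the other 5 probe sets lie within it, apart from 2 Chrna7 values, 1.99 and 2.03, below it.

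The first question was whether receptor transcripts differed between aged and young CA1, and whether they followed learning among the aged. Chrm1, the main excitatory muscarinic receptor of hippocampal pyramidal cells, had a lowest, median and highest signal of 6.04, 6.21 and 6.46 in aged impaired rats, of 6.03, 6.09 and 6.27 in aged unimpaired rats, and of 5.95, 6.11 and 6.27 in young rats. The groups overlapped over most of their range, and 2 of 8 impaired arrays lay above every young and every unimpaired array. The means were 6.22 ± 0.15 in impaired (SD, n = 8), 6.13 ± 0.09 in unimpaired (SD, n = 6) and 6.14 ± 0.10 in young arrays (SD, n = 9). In the limma fit, Chrm1 differed by 0.08 ± 0.06 (SE) on the log2 scale between impaired and young rats, with an adjusted p of 0.504 after Benjamini-Hochberg adjustment over all genes tested. Between impaired and unimpaired rats the limma difference was 0.10 ± 0.06 (SE; Benjamini-Hochberg adjusted p = 0.810), and between unimpaired and young rats it was -0.01 ± 0.06 (SE; adjusted p = 0.986). The 95% confidence interval for all aged against young rats ran from -0.06 to 0.15, a ratio of 0.958 to 1.109, so larger changes of Chrm1 in either direction lay outside it.

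Chrm3, the other Gq-coupled receptor of the group, had signals of 6.81, 6.98 and 7.08 (lowest, median and highest) in impaired rats, of 6.50, 7.05 and 7.34 in unimpaired rats, and of 6.60, 7.10 and 7.47 in young rats. No impaired array lay outside the range of the young arrays. The impaired arrays lay closest together, with an SD of 0.10 around a mean of 6.96 (n = 8), against an SD of 0.28 around 7.01 in unimpaired (n = 6) and of 0.26 around 7.07 in young arrays (n = 9), and this difference in spread was not tested. The limma difference between impaired and young rats was -0.11 ± 0.10 (SE; Benjamini-Hochberg adjusted p = 0.648), and that between aged and young rats was -0.09 ± 0.09 (SE; adjusted p = 0.712). Single young arrays moved both: without young replicate 3 they were -0.17 and -0.15, and without young replicate 7 they were -0.06 and -0.04. The direction between unimpaired and young rats rested on 1 array: the limma difference of -0.06 ± 0.11 (SE; adjusted p = 0.928) became 0.04 without unimpaired replicate 3. For all aged rats against young rats the 95% confidence interval of the ratio was 0.824 to 1.069.

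Chrm4, a Gi-coupled receptor that lowers transmitter release, had signals of 5.21, 5.90 and 6.23 in impaired rats, of 5.77, 5.98 and 6.08 in unimpaired rats, and of 5.59, 5.96 and 6.38 in young rats (lowest, median and highest). The groups overlapped, apart from 1 impaired array at 5.21 that lay below all others. The means were 5.84 ± 0.28 in impaired (SD, n = 8), 5.97 ± 0.11 in unimpaired (SD, n = 6) and 5.96 ± 0.22 in young arrays (SD, n = 9). The limma difference was -0.12 ± 0.10 (SE; Benjamini-Hochberg adjusted p = 0.621) between impaired and young rats and -0.13 ± 0.12 (SE; adjusted p = 0.858) between impaired and unimpaired rats. Without that array, impaired replicate 7, the differences were -0.03 and -0.04. The same array had the lowest mean of the 8 impaired arrays over the 4 measured CA1 pyramidal markers and over the 9 interneuron markers, its median correlation of 0.996 was the lowest of all arrays, and its difference of 1.35 between 3 prime and 5 prime control probe sets was the highest. Their part in the Chrm4 value was not tested. The 95% confidence interval of the ratio of aged to young rats was 0.837 to 1.09.

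**Figure D2:**
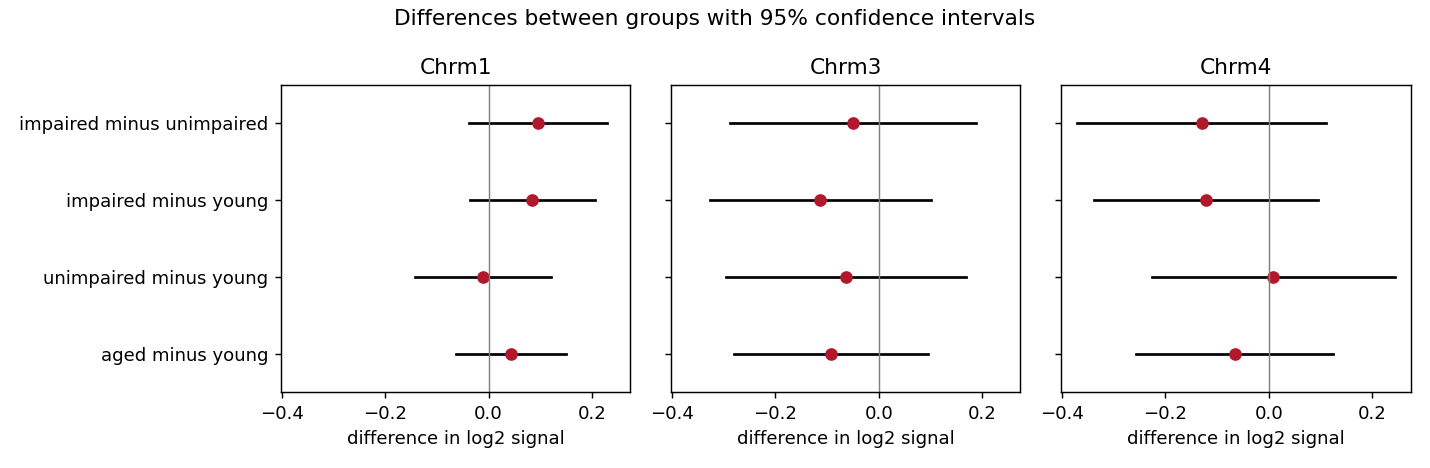
Differences in log2 signal (horizontal axis) of Chrm1, Chrm3 and Chrm4 in the 4 comparisons, with points for the limma estimate and lines for its 95% confidence interval. All 12 intervals include 0, and the interval for Chrm1 in aged minus young rats, -0.06 to 0.15, is the narrowest.

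Counts over all genes put these values in scale. Of the 3 tested receptors, 0 were called at an adjusted p under 0.05 between aged and young rats, where 3.71% of the 9076 genes were called, and 0 between impaired and young rats, where 3.8% were. Likewise 0 were called between unimpaired and young rats, with 0.76% of all genes called, and 0 between impaired and unimpaired rats, with 0% called. None of the 3 had an unadjusted p under 0.05 in any of these limma comparisons, against 15.3%, 16.5%, 9.84% and 6.93% of all genes. With so few genes and these shares, a count of 0 says nothing particular about receptors. Chrm3 and Chrm4 also varied more between the arrays of a group than most genes. Their SD within groups, 0.224 and 0.227, was larger than that of 83.58% and 84.35% of tested genes, whereas that of Chrm1, 0.119, was below the median of 0.138. With 1 array for each replicate, differences between rats and technical variation cannot be told apart. Without impaired replicate 7, the SE of the Chrm4 difference between aged and young rats went from 0.09 to 0.07.

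No correlation between the 3 detected receptors from array to array passed the test. Over 23 arrays, after group means were removed, Chrm1 and Chrm3 correlated with r = 0.118 (permutation p = 0.593, rho = 0.033, p = 0.884), Chrm1 and Chrm4 with r = 0.182 (permutation p = 0.407, rho = 0.083, p = 0.704), and Chrm3 and Chrm4 with r = -0.113 (permutation p = 0.596, rho = -0.167, p = 0.442). Adjusted over the 3 pairs, each Pearson p was 0.596 and each Spearman p was 0.884. Leaving out the 2 arrays farthest from the median gave r = 0.236, 0.015 and -0.078 for these pairs. The sign differed between groups for each pair: that of Chrm1 and Chrm3, for instance, was -0.388 in impaired, 0.085 in unimpaired and 0.419 in young arrays.

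Among the other 9075 genes tested, those whose signal followed each receptor most closely were picked by their Pearson r over the 23 arrays with group means removed. For Chrm1 they were Rab1b (r = 0.665), a small GTPase of transport from the endoplasmic reticulum to the Golgi, Hmga1 (0.661), a chromatin protein, and Camk2n1 (0.656), an inhibitor of calcium/calmodulin-dependent kinase II. For Chrm3 they were Cldn12 (0.775), a claudin, Mrpl1 (0.764), a protein of the mitochondrial ribosome, and Gtpbp10 (0.701), a GTP-binding protein. Cldn12 and Gtpbp10 are neighbours on chromosome 4, with 0 protein-coding genes between them in the RefSeq table. For Chrm4 they were Gga3 (0.81), a sorting adaptor of the Golgi, Kdm1a (0.808), a histone demethylase, and Aplp1 (0.77), a relative of the amyloid precursor protein. Impaired replicate 7 was the lowest of its group for both Chrm4 and Kdm1a, and unimpaired replicate 3 for both Chrm3 and Cldn12. These correlations were not recomputed without those arrays. The highest of so many correlations is large for any gene: its median over all tested genes was 0.816, above that of each receptor. For Chrm1, only 0.75% of genes had a lower highest correlation, so its closest positive correlation was weaker than that of nearly all tested genes. Negative correlations were not searched.

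Of the 5 dim probe sets, 3 moved with the background of their array: those of Chrm2, Chrna4 and Chrnb2. Chrm2, the receptor through which cholinergic terminals limit their own release, had signals of 2.51, 2.55 and 2.58 in impaired rats, of 2.51, 2.54 and 2.57 in unimpaired rats, and of 2.54, 2.58 and 2.62 in young rats (lowest, median and highest). The signal was under the young minimum in 7 of 14 aged rats, at a mean difference of only -0.03 ± 0.01 (SE). Chrnb2, the beta subunit of the main heteromeric nicotinic receptor of the brain, had 3.42, 3.52 and 3.55 in impaired rats, 3.45, 3.51 and 3.52 in unimpaired rats, and 3.51, 3.55 and 3.65 in young rats. Here too 7 of 14 aged rats had a signal under the young minimum, at a mean difference of -0.05 ± 0.02 (SE). In a limma fit of all probe sets with no filter, these aged-minus-young differences had unadjusted p-values of 0.0141 for Chrm2 and 0.00603 for Chrnb2, and both had a Benjamini-Hochberg adjusted p of 0.173. Of the 5 dim receptor probe sets 0 were called, against 0.894% of all probe sets, and 3 had an unadjusted p under 0.05, against 28.7%. Among the probe sets that never exceeded 4, to which these 5 belong, 44.83% were lower in aged rats with an unadjusted p under 0.05.

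The remaining dim receptors gave no call either. Chrna4, the alpha subunit that joins beta2, had 2.71, 2.74 and 2.75 in impaired rats, 2.67, 2.73 and 2.74 in unimpaired rats, and 2.71, 2.74 and 2.80 in young rats. Its limma difference between aged and young rats was -0.02 ± 0.01 (SE; unadjusted p = 0.0468, Benjamini-Hochberg adjusted p = 0.173). Chrna7, the subunit of the homomeric receptor with fast calcium entry, had 1.99, 2.30 and 2.45 in impaired rats, 2.21, 2.22 and 2.28 in unimpaired rats, and 2.03, 2.31 and 2.39 in young rats, with groups that overlapped and a limma difference of -0.01 ± 0.04 (SE; adjusted p = 0.901). The dim Chrm3 probe set differed by -0.04 ± 0.08 (SE; limma, adjusted p = 0.757). Between impaired and unimpaired rats, the Benjamini-Hochberg adjusted p of each of the 5 dim probe sets in the limma fit was 1.0.

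Across the array, 13918 probe sets never exceeded 4, and 90.72% of them were lower in aged than in young rats, with a median difference of -0.02. The median of these dim probe sets was 2.44 ± 0.02 in impaired (SD, n = 8), 2.44 ± 0.01 in unimpaired (SD, n = 6) and 2.46 ± 0.03 in young arrays (SD, n = 9). With group means removed, it correlated over 23 arrays with Chrm2 at r = 0.946 (rho = 0.952), with Chrna4 at r = 0.806 (rho = 0.837) and with Chrnb2 at r = 0.766 (rho = 0.852). Each of these 6 coefficients had a permutation p of 1e-05, the smallest that the permutations can give, and 3e-05 after adjustment over 8 probe sets. They held without the 2 arrays farthest from the median, at r = 0.933, 0.713 and 0.823. For the other 5 probe sets r lay between -0.118 and 0.368, with adjusted permutation p-values of 0.168 to 0.591. When each array was centred on its dim median, a setting chosen after the data were seen, the aged-minus-young difference became -0.01 for Chrm2 (limma, adjusted p = 0.426) and -0.03 ± 0.01 (SE) for Chrnb2 (limma, adjusted p = 0.275). The Chrna4 difference was 0.00 after centring, and quantile normalization turned its sign, to 0.0046. Centring each array on its median over the tested genes, a planned setting, instead made the differences larger. They were then -0.0553 for Chrm2, -0.0479 for Chrna4 and -0.0766 for Chrnb2 (limma, adjusted p = 0.421 for each). Size and sign thus depended on the scaling, and no change of these 3 receptors relative to the other dim probe sets passed the test.

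**Figure D3:**
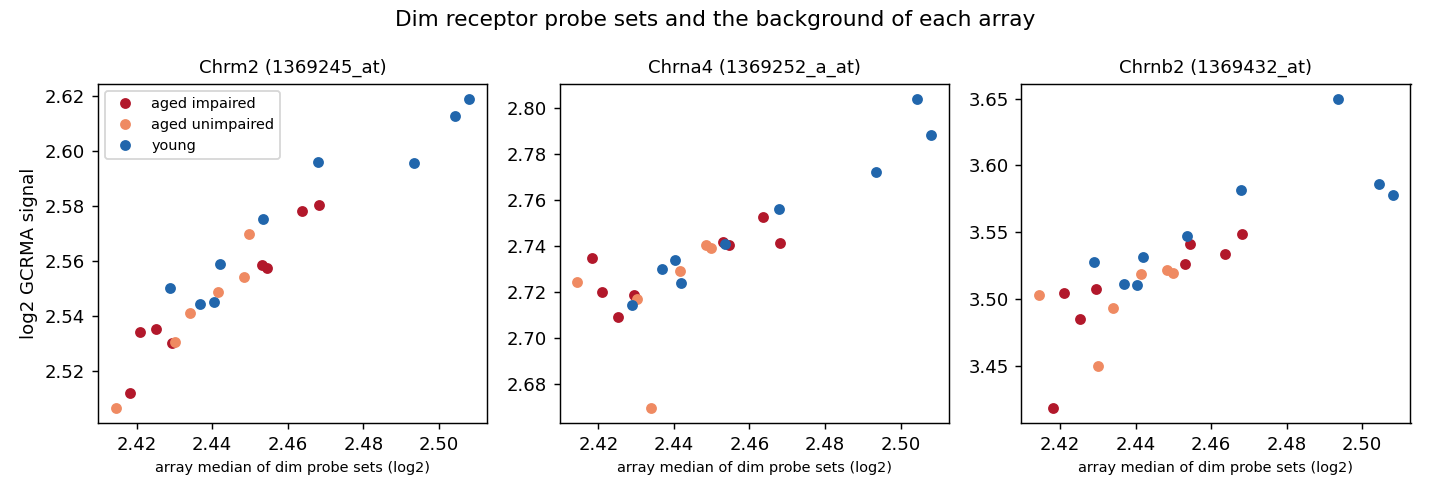
Log2 signal of the dim probe sets of Chrm2, Chrna4 and Chrnb2 (vertical axes) against the median log2 signal of the 13918 probe sets that never exceeded 4 (horizontal axis), 1 point per array, coloured by group. The points of all groups rise together, and the 3 arrays with the highest background are young.

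The other receptor genes gave no further signal. All 14 remaining muscarinic and nicotinic subunit genes with a probe set (15 probe sets, among them those of Chrm5, Chrna2, Chrna3 and Chrna5) were dim, with mean signals of 1.88 to 3.01 and no single value over 3.38. In all, 15 of 15 were lower in aged than in young rats, by -0.07 to -0.01 with a median of -0.02, which is the median of the dim probe sets as a whole, and the smallest limma adjusted p was 0.173. With arrays centred on their dim median, 6 of the 15 were lower in aged rats and the median difference was 0.00. The genes of the cholinergic neuron itself were also at background: Chat, which makes acetylcholine, had a mean signal of 2.47, Slc18a3, which loads it into vesicles, 1.57, and Slc5a7, which takes choline back into terminals, 3.06. Bche, a second enzyme that breaks acetylcholine down, had 3.01, Colq, which anchors acetylcholinesterase in muscle, 1.93, and Ngfr, a receptor of the nerve growth factor on which septal neurons depend, 2.37.

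Of the related genes listed, those that passed the test were 3 genes of choline supply, all higher in impaired than in young rats. The list of acetylcholine synthesis and transport held 7 genes, of which 4 passed the filter. It was chosen with earlier results of these data known, so the shares over all genes give a scale and not a test. Against young rats, 3 of these 4 rose in impaired rats, where 3.09% of all genes rose, with a median difference of 0.22 against 0.01 over all genes, and 1 of 4 rose between all aged and young rats, where again 3.09% of all genes rose. That 1 call, of Slc44a1, was lost in 10 of 23 cases with 1 array left out and under 5 of 12 other settings. The 3 genes also serve the making of membrane phospholipids in all cells, so the name of the list says more than its members do. Slc44a1, a choline transporter of the plasma and mitochondrial membranes, had signals of 8.70, 9.16 and 9.37 in impaired rats, of 8.47, 8.89 and 9.09 in unimpaired rats, and of 8.47, 8.69 and 8.85 in young rats (lowest, median and highest). Of the impaired arrays 7 of 8, and of the unimpaired arrays 3 of 6, lay above every young array.

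The Slc44a1 signal was 1.33-fold higher in impaired than in young rats, at a limma difference of 0.41 ± 0.09 (SE; Benjamini-Hochberg adjusted p = 0.0117), and it remained called when any 1 array was left out, but not under 2 of 12 other settings. In unimpaired against young rats the limma difference was 0.16 ± 0.10 (SE; adjusted p = 0.651), and impaired against unimpaired rats differed by 0.25 ± 0.10 (SE; unadjusted p = 0.0217, adjusted p = 0.651), so the aged groups were not shown to differ. Of its 3 probe sets 1 was called: with no filter, the probe set that represents the gene (1368480_at) differed between impaired and young rats by 0.41, against 0.13 ± 0.07 (SE; limma adjusted p = 0.286) for 1373054_at and -0.09 ± 0.11 (SE; adjusted p = 0.625) for 1370935_at. With the mean of the probe sets in place of the brightest, the limma difference was 0.15 and the call was lost (adjusted p = 0.234).

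Slc44a2, a related choline transporter, had signals of 9.28, 9.45 and 9.75 in impaired rats, of 9.24, 9.34 and 9.41 in unimpaired rats, and of 9.05, 9.30 and 9.37 in young rats (lowest, median and highest). It was 1.178-fold higher in impaired than in young rats, with 5 of 8 impaired arrays above every young array and a limma difference of 0.24 ± 0.06 (SE; Benjamini-Hochberg adjusted p = 0.0293). Chkb, the kinase that takes choline into phosphatidylcholine synthesis, had 9.13, 9.24 and 9.45 in impaired rats, 9.02, 9.21 and 9.31 in unimpaired rats, and 8.85, 9.11 and 9.27 in young rats. It was 1.149-fold higher in impaired than in young rats, by 0.20 ± 0.06 (SE; limma, Benjamini-Hochberg adjusted p = 0.0425), with 3 of 8 impaired arrays above every young array. Both calls lay near the threshold: leaving out 1 array in turn ended that of Slc44a2 in 6 of 23 cases and that of Chkb in 16 of 23. Of 12 other settings, 3 ended the Slc44a2 call, among them the fit with no filter, and 6 ended the Chkb call, among them median centring and quantile normalization. The other choline kinase measured, Chka, differed by -0.02 ± 0.07 (SE; limma adjusted p = 0.925). Of 5 microglial markers 3 rose in impaired against young rats, where 3.09% of all genes rose. These markers and Gfap, the astrocyte marker that rose, moved in the same direction as the 3 choline genes. Their part in the result was not tested. The summed linear signal of the 6 astrocyte markers was 37495.6 to 47466.5 in impaired, 38928.4 to 44911.0 in unimpaired and 35158.1 to 41022.5 in young arrays. That of the 5 oligodendrocyte markers was 43295.8 to 52048.9 in impaired, 44691.5 to 47969.4 in unimpaired and 41197.3 to 48014.2 in young arrays. Of these 5 markers 0 were called between impaired and young rats, where 3.8% of all genes were.

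**Figure D4:**
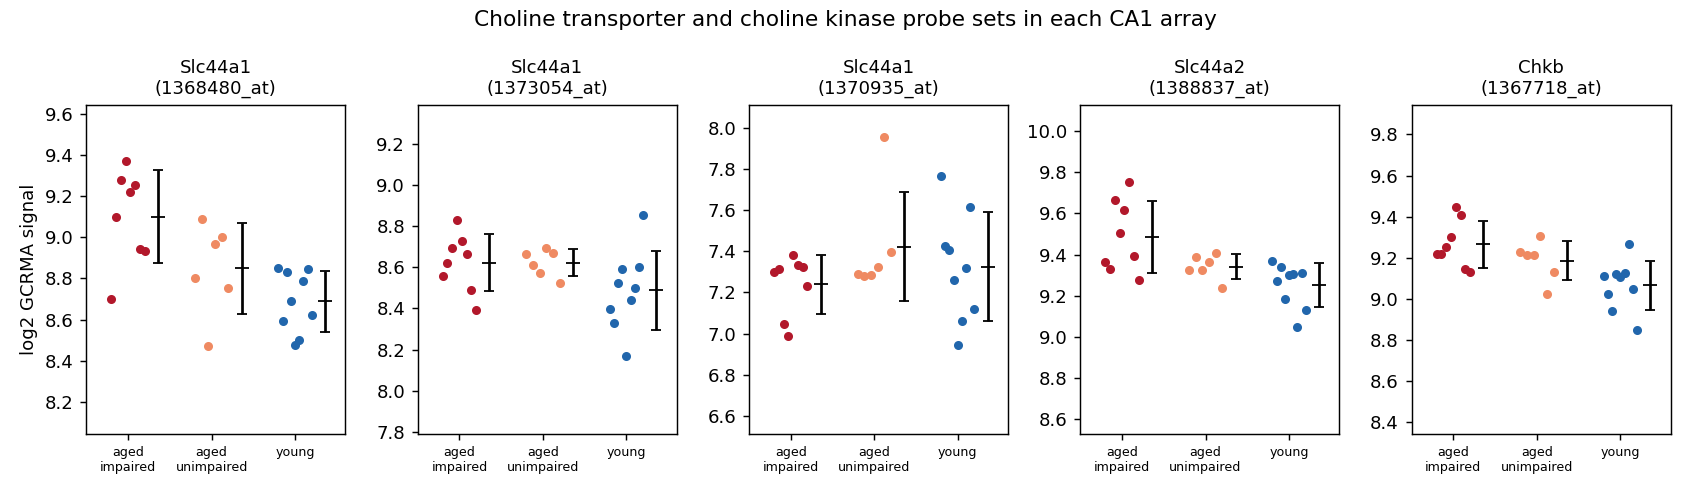
Log2 GCRMA signal (vertical axes, each spanning the same 1.6 units around its own median) of the 3 Slc44a1 probe sets and of Slc44a2 and Chkb in every array of the aged impaired, aged unimpaired and young groups, with group mean and SD as a black bar. In the first panel 7 of 8 impaired arrays lie above all young arrays, whereas none do so in either of the next panels, which show the same gene.

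Downstream of the receptors no listed gene passed the test in any comparison. Between aged and young rats 3.71% of all genes were called and 15.3% had an unadjusted p under 0.05, so a count of 0 in lists of 4 to 11 genes lies near the background. Of 11 measured genes of Gq coupling, which M1 and M3 use, 0 were called between aged and young rats, at a median difference of -0.02 against 0.01 over all genes, and 0 had an unadjusted p under 0.05. Kcnq3, a subunit of the potassium channel that muscarinic receptors close, had the largest difference in that list, at a mean of 5.49 in impaired, 5.72 in unimpaired and 5.91 in young rats, but with an aged-minus-young difference of -0.33 ± 0.27 (SE; limma adjusted p = 0.640). Of 9 measured genes of Gi coupling 0 were called between aged and young rats, at a median of -0.03, and 0 had an unadjusted p under 0.05. The smallest p there was that of Rgs14, a brake on Gi signalling that is also a marker of the CA2 field, at -0.13 ± 0.06 (SE; limma adjusted p = 0.327). Between unimpaired and young rats Rgs14 differed by -0.18 ± 0.08 (SE; limma unadjusted p = 0.0317, adjusted p = 0.428), the 1 gene of the list with an unadjusted p under 0.05 there. Kcnj3, a subunit of the potassium channel that Gi-coupled receptors open, differed by -0.07 ± 0.04 (SE; limma adjusted p = 0.403).

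The genes that fold, hold and silence receptors were also without a call. Of 5 measured chaperones and Ly6 partners of nicotinic receptors 0 were called between aged and young rats, at a median of -0.03, and 0 had an unadjusted p under 0.05. Ric3, a chaperone needed for alpha7 assembly, had means of 8.24 in impaired, 8.26 in unimpaired and 8.40 in young rats, with an aged-minus-young difference of -0.14 ± 0.08 (SE; limma adjusted p = 0.389). Lynx1, a membrane protein that damps nicotinic receptors, differed by -0.07 ± 0.05 (SE; limma adjusted p = 0.499). Of 4 measured genes of receptor desensitization 0 were called, at a median of -0.03, and 0 had an unadjusted p under 0.05 between aged and young rats. Arrb2, which binds phosphorylated receptors, had an unadjusted p of 0.0499 between impaired and young rats, at -0.13 ± 0.06 (SE; limma adjusted p = 0.302). Sort1, the 1 measured gene of nerve growth factor support, differed between aged and young rats by 0.04 ± 0.03 (SE; limma adjusted p = 0.578).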

How the data were processed

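Of 24 sample columns over 31099 probe sets, 1 was blank (an aged unimpaired array that failed the submitters' quality control), which left 23 arrays. The authors deposited log2 signals computed with GCRMA, per the submitters' processing notes. Its version was not given in the sources used here. Symbols came from the platform annotation, and 20832 probe sets carried exactly 1. Each gene was represented by its brightest probe set among those over 4 in at least 6 arrays. The 3 group means were fitted with limma 3.58.1 in R 4.3.3, aged rats weighted by arrays, with Benjamini-Hochberg adjustment over 9076 genes, and calls made at 0.05. Dim probe sets were taken from a fit without the filter. Correlations used 100000 permutations. The fit was tested on simulated data. Of genes planted with a log2 change of 0.25, 60.6% were called between aged and young rats and 44.4% between impaired and unimpaired rats. At a change of 0.5 the shares were 93.4% and 87.2%. Each run planted 200 changed genes, some with changes as large as 2, in independent normal noise. The measured data had 0 genes called between impaired and unimpaired rats, so the adjustment there was stricter than in the simulation. These shares are averages over genes and do not give the chance of a call for Chrm3 and Chrm4, which varied more within groups than most genes. Tables and figures used Python 3.11.15, pandas 2.3.3 and matplotlib 3.10.9.

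Members and gene lists were chosen with earlier results of these data known. Named genes were all members, the 3 genes most alike to each detected member, and from each list every called gene and up to 4 with the smallest p between aged and young rats. Alternative settings changed the filter, the probe set of a gene, normalization, array weights, RNA quality, a replicate block, the groups fitted and each array left out. Among the aged unimpaired columns, where a replicate 6 is missing from the labels, lies that of young replicate 9, which was analysed as young. No processing batch or date was used. The number of arrays limits the precision.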

Additional observations from a re-analysis of the deposited data

Results flagged for a closer look

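In 8 of 114 groups of arrays examined, 1 array lay far from the rest of its group by Dixon's gap test, 4 of them among the 24 groups of receptor probe sets. Chance flags about 1 in 20 groups. For Chrm4, aged impaired replicate 7 was the lowest at 5.2144, against 5.79 to 6.23 in the other impaired arrays. The same array was the lowest of its group for Kdm1a, at 8.3015 against 8.51 to 8.67. Kdm1a and Cldn12 were examined because their signals followed Chrm4 and Chrm3 over these same arrays. An extreme array shared with the receptor is therefore no separate observation, and the rate of 1 in 20 does not apply to them. For the dim Chrm3 probe set, aged unimpaired replicate 7 was the highest at 3.4111, against 2.68 to 2.92. For Chrna4, aged unimpaired replicate 2 was the lowest at 2.6696, against 2.72 to 2.74. For Chrna7, young replicate 8 was the lowest at 2.0289, against 2.21 to 2.39. Cldn12 was lowest in aged unimpaired replicate 3, at 8.1303 against 8.35 to 8.46. Kcnj9, a potassium channel subunit close to the filter, was lowest in aged unimpaired replicate 5, at 4.0846 against 4.10 to 4.11. Grk2, a receptor kinase, was lowest in young replicate 7, at 8.35 against 9.02 to 9.42.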

How the results depend on the processing

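No receptor was called under any alternative. The 12 differences of Chrm1, Chrm3 and Chrm4 were recomputed under 35 alternatives, with a smallest limma adjusted p of 0.333, and the 20 of the dim probe sets under 31, with a smallest of 0.0973. Counts of genes called over the whole array moved more. With the replicate number as a block, 159 genes were called between aged and young rats, 165 between impaired and young, 31 between unimpaired and young and 1 between impaired and unimpaired (Dusp6, named after its value was seen). The numbers were not taken as pairs, since the deviations of 20 same-numbered pairs correlated between -0.267 and 0.116, with 1 pair over 0.1. Array weights gave 149 genes between unimpaired and young rats, and a fit of only the groups compared gave 1 between impaired and unimpaired rats (Inhba, named after its value was seen). Leaving out 1 array in turn gave 224 to 407 genes between aged and young rats (fewest without young replicate 2), 228 to 439 between impaired and young (fewest without impaired replicate 6), 35 to 86 between unimpaired and young (fewest without unimpaired replicate 4) and 0 to 0 between impaired and unimpaired. The Slc44a1 call between aged and young rats (0.30 ± 0.08 SE, limma adjusted p = 0.0342) was lost in 10 of 23 cases, and also without the filter, with the mean of probe sets, with array weights, with the RNA quality covariate and with the block. Under 12 other settings the calls between impaired and young rats were lost in 2 for Slc44a1, 3 for Slc44a2 and 6 for Chkb, the replicate block among them each time. Low signal is the limit for Chrm2, Chrna4, Chrna7 and Chrnb2.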
